A study of Arabidopsis thaliana with 19 samples.

Results

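RGF peptides, their RGI receptors, the tyrosine sulfotransferase TPST and the transcription factor RITF1 form a signalling route that sets the size of the Arabidopsis root meristem. RGF genes (ROOT MERISTEM GROWTH FACTOR, also GOLVEN or CLE-LIKE) encode precursors that are cut down to short secreted peptides, and TPST adds a sulfate to a tyrosine of each peptide. The peptides bind RGI receptor kinases (RGF1 INSENSITIVE) at the cell surface, which act with SERK co-receptors and a MAP kinase cascade, and this signalling maintains the gradient of PLETHORA (PLT) transcription factors. RITF1 (RGF1 INDUCIBLE TRANSCRIPTION FACTOR 1), a factor of the PLATZ family, is induced by RGF1 treatment in roots and alters the distribution of reactive oxygen species along the root tip.

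The 10 genes were taken from the deposited table by their locus identifiers, 10 of 33201 loci. They comprise the ligand genes RGF1 (AT5G60810), RGF2 (AT1G13620) and RGF3 (AT2G04025), the 5 receptor genes RGI1 (AT5G48940), RGI2 (AT3G24240), RGI3 (AT4G26540), RGI4 (AT5G56040) and RGI5 (AT1G34110), RITF1 (AT2G12646) and TPST (AT1G08030). The 19 libraries came from seedlings, with no treatment named in the labels, of a single genotype, PET111:GFP, a reporter line in which mature columella cells, the centre of the root cap, carry GFP. Tips of roots were protoplasted, and the cells without GFP were sorted, so that the sample is a mixture of all other cells of the tip. Seedlings were taken at 7 ages, 8 h apart, from 4D to 6D, which are named by days (D) and further hours (H), as in 4D 8H. According to the methods, every sample was harvested at a single time of day, so the steps are in age and not in clock time. The groups share genotype and growth conditions and differ in age, and 5 ages had 3 libraries while 4D 8H and 5D 16H had 2.

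Values are FPKM, fragments per kilobase of transcript per 1e6 mapped fragments, so levels can be compared between genes per unit of length. Depth, inferred from the spacing of low values, was 10.51 to 38.8 M mapped reads (M, 1e6) in 18 libraries and 1.22 M in 5D 16H replicate 2, which stands apart. The mean Spearman correlation of that library with the others was 0.931, against 0.959 or more for every other library. Calls of the members that rest on 5D 16H are therefore given with and without it. Markers of the endodermis, epidermis and root cap were high (summed levels of 848 to 2634, 314 to 1136 and 267 to 476 FPKM), markers of the quiescent centre summed to 12.5 to 21.2 FPKM in the age means, and 3 photosynthesis genes to at most 6.68 FPKM. No marker was at 0 in all libraries. The sorted cells thus held RNA of mature root tissues beside that of the stem cell niche, and in such bulk samples fewer cells of a type and less RNA per cell cannot be told apart.

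The stretches below encode the end of each of the 3 ligand precursors, the last 13 codons before the stop codon, which hold the mature peptide. They are shown because they are the part of each gene that makes the signal and the substrate of TPST. Capitals mark the codons for aspartate and tyrosine, the pair in which the tyrosine is sulfated. They were read from the reference assembly TAIR10.1, and each lies within a single coding exon, for RGF1 at chr5:24466534-24466572 on the minus strand, for RGF2 at chr1:4669184-4669222 on the plus strand and for RGF3 at chr2:1276902-1276940 on the minus strand.
RGF1: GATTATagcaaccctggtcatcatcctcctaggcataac
RGF2: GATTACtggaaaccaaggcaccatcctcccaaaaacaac
RGF3: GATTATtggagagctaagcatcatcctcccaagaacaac

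The stretches of RGF2 and RGF3 were the most alike, with 32 of 39 bases identical (82.1%), against 27 for RGF1 and RGF3 and 26 for RGF1 and RGF2. All 3 shared 23 bases, and the longest run identical in all of them was 8 bases long, starting at base 22 of the stretch. Over whole transcripts, the longest exact run shared by any of the 10 genes was 41 bases (RGI3 and RGI4), shorter than the reads of 100 bases. RGF2, RGI3 and RGI5 overlap a gene on the opposite strand in the annotation. Whether strand was used in counting is not given in the sources used here, so reads from such a gene and its partner cannot be told apart.

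The receptors, TPST and RGF3 were present at similar levels, and the other ligands were low. Averaged over the 19 libraries, RGI2 was highest at 17.6 ± 2.81 FPKM (SD, n = 19), followed by RGF3 at 15.6 ± 5.13, RGI4 at 14.0 ± 3.91, RGI1 at 12.1 ± 1.99, TPST at 9.83 ± 1.71, RGI5 at 9.54 ± 1.63 and RGI3 at 8.82 ± 1.21. RITF1 followed at 5.14 ± 2.02 FPKM, RGF2 at 2.44 ± 0.907 and RGF1 at 0.248 ± 0.316. The ranges of all neighbours in this order overlapped. RITF1 was nevertheless above RGF2 in 19 of 19 libraries and RGF2 above RGF1 in 19 of 19, whereas RGI5 was above RGI3 in only 9 of 19. RGF3 supplied 85.0% of the summed FPKM of the 3 ligands on average (77.7% to 94.3% over libraries), and RGI2, the largest contributor among the receptors, 28.3% of theirs (24.4% to 30.6%).

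The question of the time course is how expression in the stem cell region changes from one 8-h interval to the next. Of the 10 genes, 9 had a mean of at least 1 FPKM and were tested, and RGF1 fell below that limit. A moderated F test over the 7 ages (limma on log2(FPKM + 1), p-values adjusted over all loci by the Benjamini-Hochberg method, threshold 0.05) called 2 of the 9, RGF3 (adjusted p = 0.0153) and RITF1 (adjusted p = 0.0497). The background share of loci called was 29.7%, so the count of members is not above it. None of the 5 receptors passed (adjusted p from 0.0837 for RGI1 to 0.632 for RGI3), nor did RGF2 (0.364) or TPST (0.208).

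RGF3, the most abundant of the 3 ligand genes, was lowest at 5D 16H and fell and rose again around that age. At 4D its replicates stood at 13.05, 16.6 and 10.4 FPKM, at 4D 8H at 21.9 and 18.2, and at 4D 16H at 12.7, 20.5 and 24.8. At 5D they stood at 14.5, 11.002 and 10.02 FPKM, and at 5D 8H at 15.7, 17.2 and 18.6. The 5D 16H libraries gave 7.40 and 7.97 FPKM, and those of 6D 23.7, 19.3 and 12.96. Both 5D 16H values lay below all 17 others, the lowest of which was 10.02 FPKM, while the other ages mostly overlapped. From 5D 8H to 5D 16H the level fell by 1.06 on the log2 scale (SE 0.26, adjusted p = 0.0263, where 6.96% of all loci were called), and from 5D 16H to 6D it rose by 1.14 (SE 0.26, adjusted p = 0.013, background 12.3%). These steps share the 5D 16H libraries. The summed endodermis markers went from 2001 FPKM at 5D 8H to 1781 at 5D 16H and 958 at 6D, and those of the quiescent centre from 16.9 to 21.2 and 17.4. Within the latter the markers took different courses at these ages. WOX5 had means of 2.71, 8.92 and 5.80 FPKM, and SCR had 9.02, 9.44 and 5.31. AGL42 had 5.15, 2.86 and 6.30 FPKM, of these ages lowest at 5D 16H, but its lowest mean of the series was 0.520 FPKM at 4D. The part of these markers in the course of RGF3 was not tested.

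The deep 5D 16H replicate alone gave the same sizes but not the calls. Without the shallow library, in which RGF3 rests on about 6.02 reads, the changes were -1.11 (adjusted p = 0.124) and 1.19 (adjusted p = 0.0667), and the remaining 5D 16H library is then assumed to vary like the other ages. With library weights both calls were lost as well (adjusted p = 0.238 and 0.147). Leaving out any 5D 8H library also ended the call of the fall (adjusted p from 0.0629 to 0.0787). The F test of RGF3 still passed without the shallow library (adjusted p = 0.0426) and no longer passed without the whole 5D 16H age (adjusted p = 0.125).

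RGF2, which encodes a peptide of the same role, was low at all ages and did not pass the test. Its age means ran from 1.68 ± 0.351 FPKM at 5D 16H (SD, n = 2) to 3.37 ± 0.929 at 4D 8H (SD, n = 2). Single libraries spanned 0.665 FPKM (5D replicate 2) to 4.03 (4D 8H replicate 1), and replicates of 5D alone stood at 3.27, 0.665 and 2.30 FPKM. The spread within an age was thus about as wide as that between ages.

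RGF1, the ligand that gives the receptors their name, was at the limit of detection. It was listed at 0 in 10 of 19 libraries, and its estimated reads ran from 0 to 8.33 in the deep libraries, so that a value of 0 does not show absence. At 4D it stood at 0.391, 0.550 and 0.525 FPKM and at 4D 8H at 1.05 and 0.284. At 4D 16H 0.181 FPKM was the single value above 0, at 5D 0.571, at 5D 8H 0.479 and at 6D 0.680, and both 5D 16H libraries were at 0. All 5 libraries of 4D and 4D 8H were thus above 0, against 4 of the 14 later libraries, a split chosen after the values were seen. Over the 8 libraries before 5D, 2 were at 0, and over the 11 from 5D on, 8. The difference in mean log2(FPKM + 1), later minus day 4, was -0.24 (two-sided exact permutation test, p = 0.131), and a permutation test over the 7 ages gave p = 0.23, so no change was shown at this depth.

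**Figure D1:**
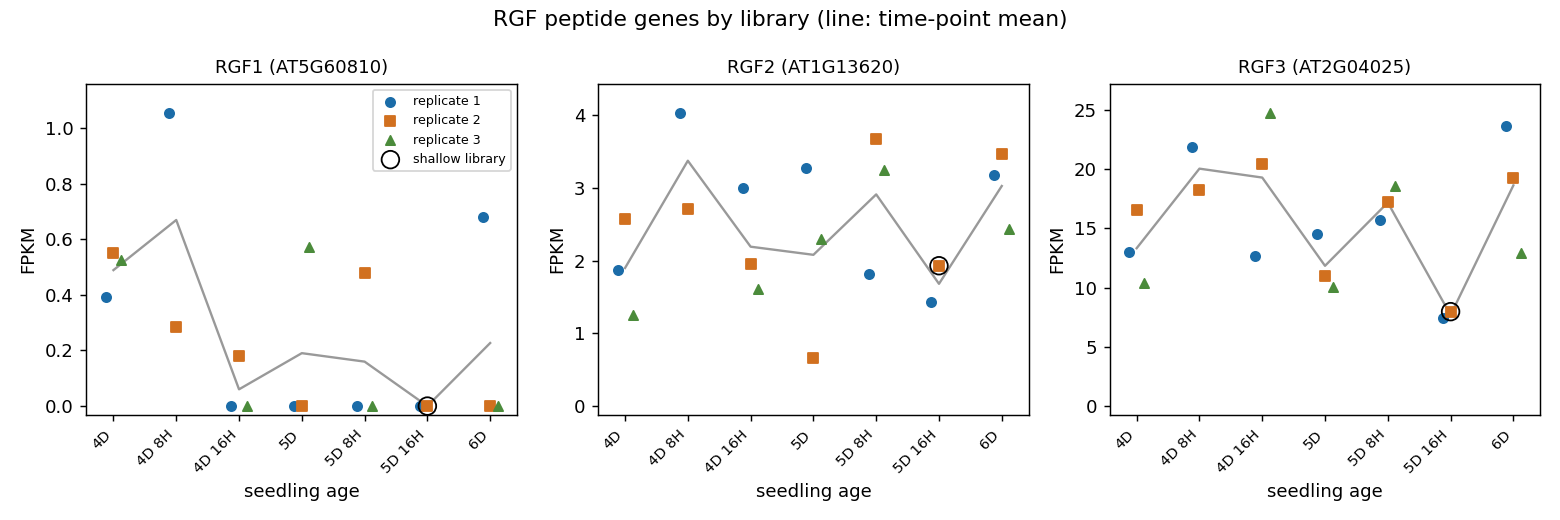
Level of the 3 RGF ligand genes in FPKM (vertical axes, different scale for each gene) at each seedling age; symbols are libraries, the line joins the age means and the open circle marks the shallow library 5D 16H replicate 2. RGF3 stood at 7.40 and 7.97 FPKM at 5D 16H, below its 17 other libraries, and RGF1 was at 0 in 10 of 19 libraries.

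The receptors varied little in their age means, but the lack of an F-test call over ages depended on the fit. With library weights RGI1, RGI2 and RGI5 passed (adjusted p = 0.0173, 0.0186 and 0.045), and RGI3 and RGI4 did not. RGI2 also passed without 4D replicate 1 (adjusted p = 0.0475), and RGI4 without 4D 16H replicate 3 (0.0469). The highest age mean of a receptor was between 1.21 times (RGI3) and 1.64 times (RGI4) its lowest, against 2.61 times for RGF3. Their summed level was highest at 5D 8H, at 73.7 FPKM (71.9 to 76.1 over 3 libraries), above all 16 other libraries, the highest of which had 69.7. The lowest age mean, 53.5 FPKM at 5D 16H, rests on the shallow library at 47.8 FPKM, since the deep 5D 16H library, at 59.2, was above the 5D mean of 55.8.

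RGI2 was at its maximum at 5D 8H. Its 5D 8H replicates stood at 23.3, 21.6 and 21.9 FPKM, above every other library of the series (at most 19.3). At 5D it stood at 14.3, 17.7 and 17.4 FPKM, and at 5D 16H at 17.6 and 11.7. The 5D 8H libraries did not overlap those of any other age. The step down to 5D 16H passed the test at -0.60 on the log2 scale (SE 0.16, adjusted p = 0.0325), and the step up from 5D did not (0.42, SE 0.14, adjusted p = 0.27). With library weights the step up passed (0.41, adjusted p = 0.0259). The lower 5D 16H value is that of the shallow library, and without it the step down was -0.32 (adjusted p = 0.344). It also missed the threshold without any single 5D 8H library (adjusted p from 0.0685 to 0.0988) and with library weights (0.265).

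At the other ages RGI2 was even. It stood at 19.3, 14.8 and 14.9 FPKM at 4D, at 18.9 and 16.7 at 4D 8H, at 16.7, 18.1 and 18.2 at 4D 16H and at 18.8, 17.7 and 15.3 at 6D. These ranges all overlapped.

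RGI1 and RGI5, which act redundantly with RGI2 in perceiving RGF peptides, were also high at 5D 8H. RGI1 averaged 13.9 ± 1.39 FPKM at 5D 8H (SD, n = 3) and was highest at 6D with 14.5 ± 2.41, while its other means lay between 10.6 and 12.1. RGI5 averaged 11.3 ± 1.03 FPKM at 5D 8H (SD, n = 3), its highest, and 7.95 ± 0.531 at 5D 16H (SD, n = 2), where the deep library alone gave 8.32, close to the 4D mean of 8.31. None of their steps passed the adjusted threshold in the unweighted fit, the smallest adjusted p being 0.0841 (RGI1, 5D 16H to 6D, 0.40 on the log2 scale, SE 0.15). With library weights RGI1 rose from 5D to 5D 8H (0.39, adjusted p = 0.04) and RGI5 fell from 4D 16H to 5D (-0.29, adjusted p = 0.0319).

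RGI4 was the most variable receptor and RGI3 the most even. RGI4 spread widely among replicates, with 18.9, 10.4 and 12.1 FPKM at 4D and 21.5, 16.3 and 10.2 at 4D 16H, and its coefficient of variation over all libraries was 27.9%. Its lowest age mean was 10.8 ± 3.03 FPKM at 6D (SD, n = 3). RGI3 ranged from 5.60 to 10.4 FPKM, and both of these extremes were 6D replicates. Its libraries of 4D (9.54 to 9.86 FPKM) and 4D 8H (9.70 and 9.73) lay above all those of 4D 16H (at most 8.69), 5D (at most 9.14) and 5D 16H (at most 9.11), whereas 5D 8H and 6D overlapped every other age.

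**Figure D2:**
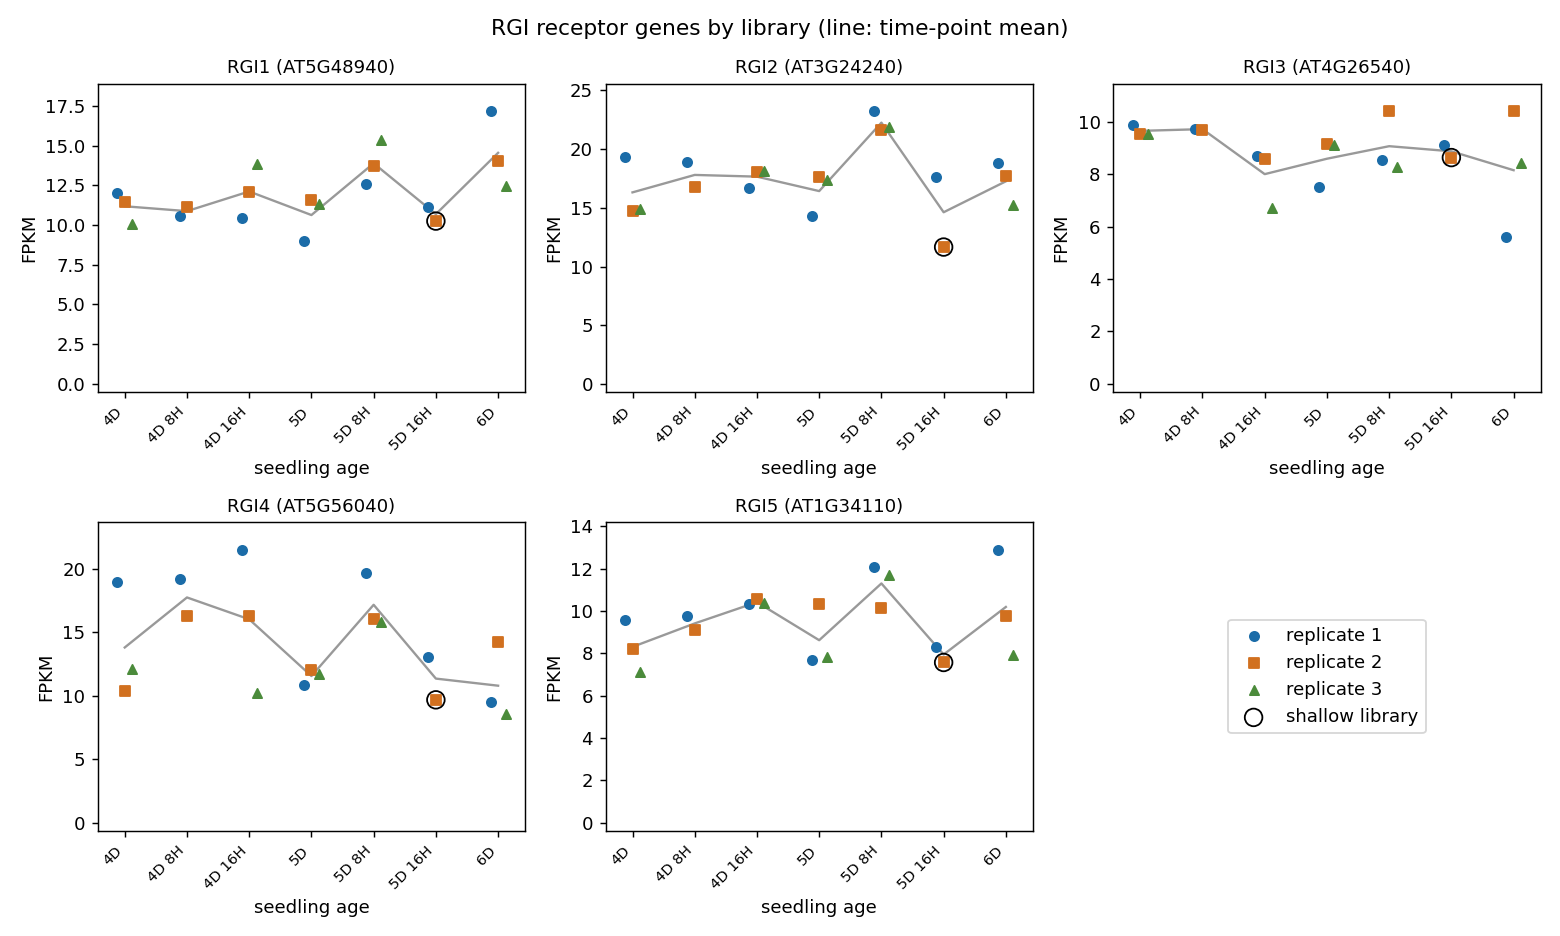
Level of the 5 RGI receptor genes in FPKM (vertical axes, different scale for each gene) at each seedling age; symbols are libraries, the line joins the age means and the open circle marks the shallow library 5D 16H replicate 2. RGI2 stood at 21.6 to 23.3 FPKM at 5D 8H, above its other 16 libraries, and RGI3 ranged from 5.60 to 10.4 FPKM, both at 6D.

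RITF1, the PLATZ factor induced by RGF1, was high at 4D 16H and dropped at 5D. It stood at 6.71, 8.14 and 7.78 FPKM at 4D 16H and at 3.63, 3.18 and 3.05 at 5D, so that these groups did not overlap and the later mean was 0.436 times the earlier. The difference was -0.99 on the log2 scale (SE 0.27, adjusted p = 0.0277). In that step 10.7% of all loci were called, and RITF1 was the single member called in the unweighted fit. With library weights RITF1 was called again (-1.08, adjusted p = 0.000147). RGF3 (-0.74, adjusted p = 0.00107), RGI4 (-0.46, 0.0255), RGI5 (-0.29, 0.0319) and TPST (-0.35, 0.00898) were then called as well. The share of all loci called with library weights was not set beside these calls, so their number cannot be read against it. For RITF1, younger seedlings stood below all 4D 16H libraries, with 3.71, 5.70 and 3.10 FPKM at 4D and 6.01 and 4.24 at 4D 8H. It stayed low at 5D 8H, at 2.54, 4.02 and 4.62 FPKM, and stood at 8.81, 7.13 and 4.84 at 6D, above all 5D and 5D 8H libraries.

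The 5D 16H replicates of RITF1 disagreed, at 2.97 FPKM in the deep library and 7.53 in the shallow one, where the value rests on about 9.61 reads. Apart from the shallow library, no library outside 4D 16H and 6D exceeded 6.01 FPKM. The call of RITF1 over all ages is at the threshold. It held in 4 of 19 fits that left out a library (adjusted p up to 0.108) and held without the 5D 16H age (0.0131). The fall from 4D 16H to 5D lost its call when any library of either age was left out (adjusted p 0.0554 to 0.0839), with estimates from -0.94 to -1.07, and with no filter on low values (adjusted p = 0.0559).

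Several cell type markers moved in the same step. From 4D 16H to 5D the summed root cap markers went from 426 to 291 FPKM (408.8 to 452 against 267 to 325 over libraries). Of the 5 markers 0 were higher, with falls of SMB (-0.49), BRN1 (-0.52) and FEZ (-1.07) among them, which are regulators of root cap cells. The summed quiescent centre markers went from 12.5 to 21.2 FPKM, with rises of WOX5 (1.53) and AGL42 (1.77) among 3, while SCR stood at 9.71 and 8.72 FPKM. The summed endodermis markers went from 1312 to 2205 FPKM, with rises of CASP5 (1.16) and ESB1 (0.996) among 7, of which 6 were higher. Their part in the fall of RITF1 was not tested.

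TPST, the enzyme that sulfates all these peptides, passed neither over ages nor in any step in the unweighted fit of all libraries. With library weights its fall from 4D 16H to 5D passed (-0.35, adjusted p = 0.00898). Over ages it did pass with library weights (adjusted p = 0.0294) and without the deep 5D 16H library (0.0472). Its 17 libraries outside 5D 16H ranged from 7.37 to 11.3 FPKM, and the 5D 16H libraries gave 9.97 and, in the shallow library, 14.9, the highest value. From 5D 8H to 5D 16H its difference was 0.44 on the log2 scale (SE 0.17, adjusted p = 0.114).

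**Figure D3:**
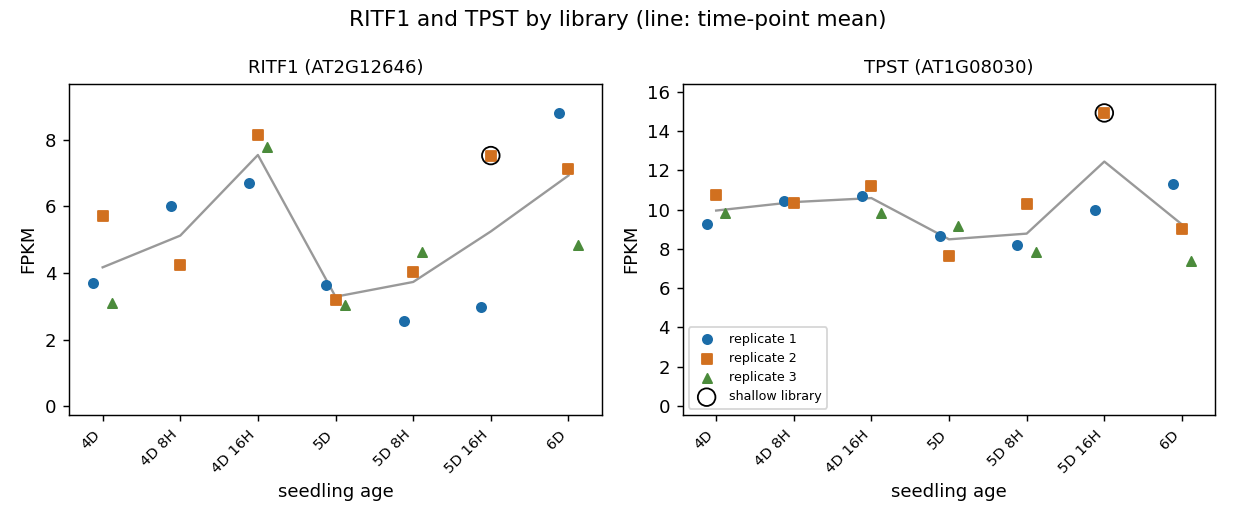
Level of RITF1 and TPST in FPKM (vertical axes, different scale for each gene) at each seedling age; symbols are libraries, the line joins the age means and the open circle marks the shallow library 5D 16H replicate 2. RITF1 stood at 6.71 to 8.14 FPKM at 4D 16H and at 3.05 to 3.63 at 5D, and the shallow library gave the highest value of TPST, 14.9 FPKM.

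Over the 9 genes and 6 steps, 4 of 54 tests passed in the unweighted fit of all libraries. They fell in 3 steps, 4D 16H to 5D (1 of 9), 5D 8H to 5D 16H (2 of 9) and 5D 16H to 6D (1 of 9), the same steps in which most loci were called. No member passed from 4D to 4D 8H (background 0.133%), from 4D 8H to 4D 16H (background 0.00%) or from 5D to 5D 8H (background 0.0498%). At an unadjusted limma p under 0.05 there were 1, 0 and 5 of the 9 members in these steps. Of all 18087 loci tested, 2612, 780 and 1977 were under that unadjusted threshold. From 5D to 5D 8H all 9 genes were nevertheless higher, with a median of 0.36 on the log2 scale (0.04 to 0.53), while 62.02% of all loci were higher with a median of 0.06. In that step the summed root cap markers went from 291 to 429 FPKM, and their part was not tested. From 5D 8H to 5D 16H 7 of 9 were lower, with a median of -0.46 against -0.07 over all loci, and RITF1 and TPST were higher. In both of these the shallow library stood above the deep one. Without the shallow library the changes were -0.23 for RITF1, 0.17 for TPST and 0.01 for RGI3.

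**Figure D4:**
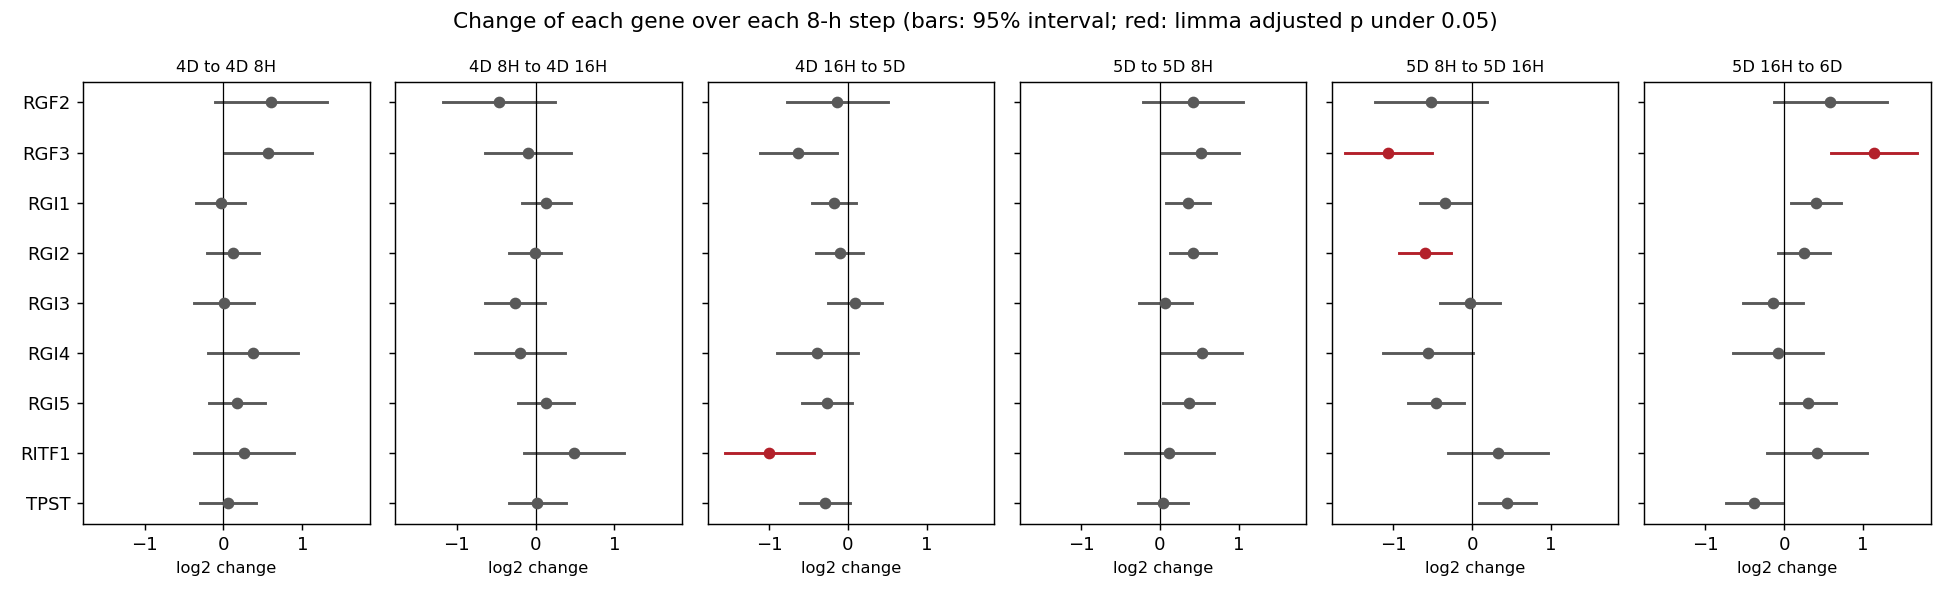
Change of each of the 9 tested genes over each 8-h step, as the log2 difference of FPKM + 1, later minus earlier age (horizontal axes); points are limma estimates, bars 95% intervals and red marks an adjusted p under 0.05. The 4 red points are RITF1 from 4D 16H to 5D (-0.99), RGF3 (-1.06) and RGI2 (-0.60) from 5D 8H to 5D 16H, and RGF3 from 5D 16H to 6D (1.14).

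No member showed a change that held from 5D on. The mean of the 4 later ages against that of the 3 earlier ones passed for 0 of 9 genes in limma (background 18.1%). At an unadjusted p under 0.05 there was 1 gene, RGF3 (-0.36, SE 0.13, adjusted p = 0.071), beside 5980 of all 18087 loci. From 4D to 6D again 0 of 9 passed (background 7.59%). Under the unadjusted threshold were 2 genes, RITF1 (0.62, SE 0.27, adjusted p = 0.191) and RGI1 (0.34, SE 0.13, adjusted p = 0.136), beside 3817 of all 18087 loci.

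The last 8-h step before a full day of age differed between day 4 and day 5 for RGF3 and RITF1. The first and the second step after a full day were compared in the same way, and 0 of 9 members passed in either (background 0.00% and 0.0332%). RGF3 changed by -0.63 from 4D 16H to 5D and by 1.14 from 5D 16H to 6D, a difference of 1.77 on the log2 scale (SE 0.35, adjusted p = 0.00621). RITF1 changed by -0.99 and by 0.41, a difference of 1.41 (SE 0.40, adjusted p = 0.0281). These were 2 of 9 members, where 16.2% of all loci were called. Without the shallow library the differences were 1.81 (adjusted p = 0.0219) and 1.96 (adjusted p = 0.0137). Without the deep 5D 16H library that of RITF1 was 0.86 and no longer passed (adjusted p = 0.0999), nor did it with no filter on low values (adjusted p = 0.0516).

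The PLT genes, transcription factors that maintain the stem cell niche downstream of RGF signalling, passed the test over ages in all 3 members that were tested. A further 48 genes were described, of the route itself or related to it by TPST or the PLATZ family. Of these, 41 were tested and 16 passed the F test (39.0%, against 29.7% of all loci). Outside the route, 5 of 8 genes of other sulfated peptides, 1 of 5 of their receptors and 4 of 8 PLATZ relatives passed. Within it, 3 of 3 PLT genes, 1 of 5 other RGF genes, 1 of 4 co-receptors and 1 of 5 kinases passed, and none of UBP12, UBP13 and the protease SBT6.1. The count of other RGF genes was higher without the shallow library, a fit with 1 library left at 5D 16H. PLT1 ranged from 2.84 FPKM at 5D 16H to 8.08 at 4D 16H (means), PLT2 from 2.68 to 6.11 at the same ages, and PLT3 from 20.2 at 5D to 33.3 at 6D. PLT1 fell by 0.86 (SE 0.22, adjusted p = 0.0223) and PLT2 by 0.64 (SE 0.14, adjusted p = 0.0124) in the step in which RITF1 fell. PLT2 also fell from 5D 8H to 5D 16H (-0.60, adjusted p = 0.036) and rose to 6D (0.58, adjusted p = 0.0302), the steps of RGF3, which without the shallow library were -0.38 (adjusted p = 0.305) and 0.35 (adjusted p = 0.286). The change over the last 8-h step before a full day of age was higher on day 5 than on day 4, as for RGF3 and RITF1. The differences were 1.37 for PLT1 (SE 0.33, adjusted p = 0.014), 1.21 for PLT2 (SE 0.21, adjusted p = 0.00393) and 0.75 for PLT3 (SE 0.16, adjusted p = 0.00805). Without the shallow library these differences were 1.74, 0.99 and 0.67, and all passed (adjusted p = 0.0143, 0.0193 and 0.0393). BBM, a further PLT gene, averaged 0.446 FPKM and was not tested.

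**Figure D5:**
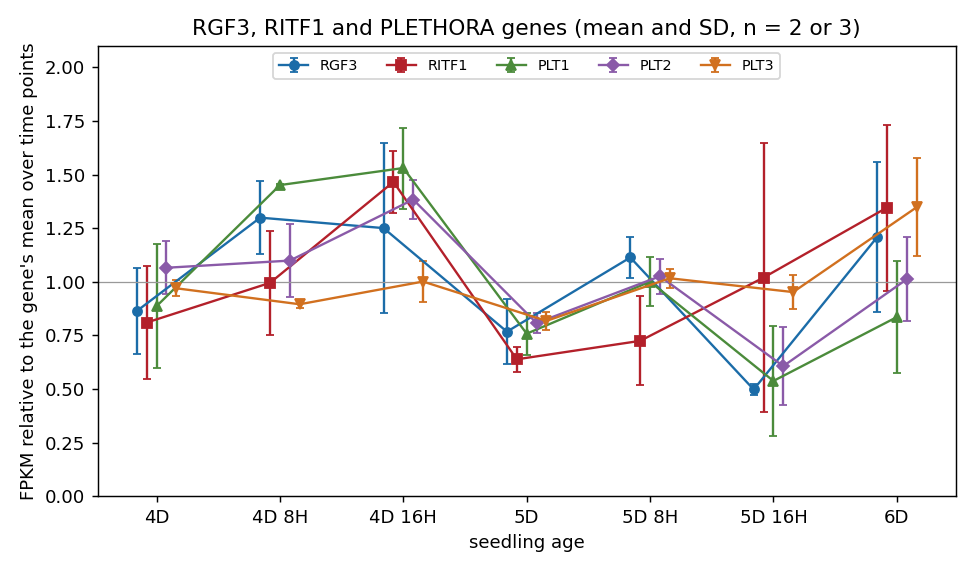
Age means of RGF3, RITF1, PLT1, PLT2 and PLT3, each divided by the gene's mean over the 7 ages (vertical axis, no unit), against seedling age; bars are SD of 2 or 3 libraries. RGF3, PLT1 and PLT2 were lowest at 5D 16H, while RITF1 and PLT3 were lowest at 5D.

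Among the other RGF genes, RGF7 was the most abundant of the whole family at 32.5 ± 9.48 FPKM (SD, n = 19), above RGF3. Of 5 tested, RGF5 passed over ages, from 0.568 FPKM at 5D 16H to 4.43 at 6D, and it was listed at 0 in the shallow library and stood at 1.14 FPKM in the deep one. Without the shallow library, RGF4, RGF5 and RGF8 changed by 0.70, 1.31 and 1.49 on the log2 scale from 5D 16H to 6D. RGF7 and GLV8 changed by -0.77 and -1.08 in that fit. These sizes rest on the deep library alone at 5D 16H, so no call is drawn from them. RGF9 was listed at 0 in 18 of 19 libraries. The co-receptor gene SERK1 passed (1 of 4), from 4.75 FPKM at 6D to 8.97 at 4D 8H, and fell in the step of RITF1 (-0.58, SE 0.16, adjusted p = 0.0277), whereas BAK1, the most abundant at 74.7 ± 5.41 FPKM, did not. Of 5 kinase genes MKK4 passed, from 5.57 FPKM at 5D 16H to 14.0 at 4D 8H, and its shallow library gave its lowest value of 2.30. The genes of UBP12 and UBP13, which stabilise an RGF receptor by removing ubiquitin, and of the precursor protease SBT6.1 did not pass, with means from 5.02 to 56.0 FPKM.

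Of the genes of other sulfated peptides, which also depend on TPST, 5 of 8 passed over ages, where 29.7% of all loci were called. The call of PSK4 held in 12 of 19 fits that left out a library and that of PSK2 in 17. PSK2 ranged from 88.9 FPKM at 6D to 174 at 5D, PSK3 from 22.3 at 5D 16H to 71.3 at 4D 8H, PSK4 from 705 at 6D to 1090 at 5D, PSK5 from 22.6 at 6D to 56.6 at 4D 8H and CIF2, a peptide of the endodermal barrier, from 28.9 at 6D to 75.1 at 4D 8H. Of 5 receptor genes of these peptides, GSO1, the receptor of CIF peptides, passed, from 14.1 FPKM at 6D to 37.7 at 5D. In the step from 5D 16H to 6D, in which RGF3 rose, PSK2, PSK5 and CIF2 fell (-0.66, -0.85 and -1.03, adjusted p = 0.0447, 0.0391 and 0.00764), and without the shallow library none of these falls passed (adjusted p from 0.0916 to 0.225). In that step the summed endodermis markers went from 1781 to 958 FPKM, and their part was not tested.

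Of 11 other PLATZ genes, relatives of RITF1, 8 were tested and 4 passed. AT1G32700 ranged from 47.4 FPKM at 5D 16H to 75.7 at 6D (adjusted p without the shallow library 0.0819), AT1G43000 from 3.53 at 6D to 11.5 at 4D 8H, AT4G17900 from 172 at 6D to 228.5 at 5D and AT5G46710 from 23.0 at 6D to 48.9 at 4D 8H. The calls of MKK4 and AT4G17900 held in 5 and 6 of 19 fits that left out a library. The 25 of the further genes that were tested and did not pass had means over the libraries from 1.36 to 107 FPKM and adjusted p from 0.0538 to 0.946. The 7 below the filter had means of at most 0.884 FPKM.

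As a description over the 19 libraries, which share age and sorting, RGF3 and PLT1 had a Pearson r of 0.80 (Spearman 0.75), RGF3 and RITF1 0.53 (0.61), and RGF3 and RGI5 0.64 (0.63). Without the shallow library RGF3 and RITF1 had an r of 0.74. Among receptors RGI2 and RGI5 were most alike (r = 0.78, Spearman 0.78). RGI3 had a negative r with RGI1 (-0.38, Spearman -0.18) and with RGI5 (-0.37, Spearman -0.29). The loci most like RGF3 were AT4G20325, AT2G46850 and AT5G05640 (r = 0.90, 0.89 and 0.89), and those most like RITF1 were TRM5, RPA70D, a subunit of the replication protein A complex, and AT1G23410 (r = 0.88, 0.86 and 0.86). Those most like RGI1 were AGP31, an arabinogalactan protein, AT2G34170 and AIR3 (r = 0.89, 0.88 and 0.84).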

How the data were processed

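The authors deposited FPKM per locus, computed from single-end reads of 100 bases, for which the methods name Bowtie, the Tuxedo tools and Rsubread and the submitters' processing notes name TopHat, Cufflinks and the build TAIR10. Tool versions, filters and strand use are not given in the sources used here. Groups and replicate numbers came from sample titles, and the methods describe biological replicates that were each grown from their own batch of seed.

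The 18087 of 33201 loci that averaged 1 FPKM or more entered 1 linear fit of log2(FPKM + 1) with limma 3.58.1 (R 4.3.3). The scale understates changes of low genes. Variances were trended, and p-values had Benjamini-Hochberg adjustment over all loci and a threshold of 0.05. RGF1, below the filter, was tested by permutation (100000 draws, or all 75582 relabellings for day 4 against later). The fit was checked on simulated data. Library depth was inferred from the spacing of low values of 15778 loci. Only 27.7% to 44.8% of low values lay within 0.05 of whole reads (10% by chance), too few for a count test.

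All members were described, pathway genes were named if they passed the F test, and the 3 loci most alike were named for the 3 members with the smallest p. Members and lists were chosen with earlier results of these data known. Sequences came from the RefSeq assembly TAIR10.1. Fits of the pathway genes without 5D 16H replicate 2 were added after seeing the data.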

Additional observations from a re-analysis of the deposited data

Results flagged for a closer look

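The change over the last 8-h step before a full day of age differed between day 4 (4D 16H to 5D) and day 5 (5D 16H to 6D). This held for RGF3 and for RITF1, by a test of the difference itself in the same limma fit. For RGF3 the difference, day 5 minus day 4, was 1.77 on the log2 scale (adjusted p = 0.00621) and ranged from 1.57 to 2.03 when each library was left out in turn. For RITF1 it was 1.41 (adjusted p = 0.0281) and ranged from 0.86, without the deep library 5D 16H replicate 1, to 1.96, without the shallow library 5D 16H replicate 2. The call of RITF1 was lost in 6 of 19 such fits (adjusted p from 0.0552 to 0.0999), and that of RGF3 in none of them (adjusted p up to 0.0219).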

How the results depend on the processing

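The F test called 2 members, and 1 with a pseudocount of 0.1, no filter on low values, the replicate block, variances without trend or without the 5D 16H age. Library weights gave 6, and leaving out each library 1 to 4 (4 without the deep 5D 16H replicate 1). RITF1 was the call lost in the first 4 of these settings (adjusted p = 0.0553, 0.0967, 0.0556 and 0.0556), and RGF3 without the 5D 16H age (0.125). The 8-h steps gave 4 calls, 1 with fits of only the ages of each step, 7 with library weights (of which 1, the fall of RITF1, was among the 4, those of RGF3 and RGI2 being lost), and 1 to 7 when each library was left out (1 without 5D 16H replicate 2, 7 without 5D 16H replicate 1, 2 without any 5D 8H replicate). Day 4 against later gave 0 calls, 1 with library weights, and 0 to 1 when libraries were left out (1 without 4D replicate 3, 4D 16H replicate 1 or 3, or 6D replicate 1). 4D to 6D gave 0 in all alternatives. The cause of these moves was not tested. The share of all loci called in each alternative fit was not set beside these counts, so they cannot be read against it. Over single genes, 1397 of 1556 alternative values kept their side of the threshold, 95 lost it, 64 gained it and 0 changed direction. Replicate numbers did not pair the samples, since deviations of same-numbered samples correlated at a mean of 0.01 (52 pairs, -0.22 to 0.24), and the replicate block moved no other count of members called. Depth limits RGF1 and every value of 5D 16H replicate 2 most.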
